A study of Mus musculus with 8 samples.

Results

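The integrated stress response was followed through 10 genes, the transcription factor gene Atf4 and Atf3, Ddit3, Chac1, Cebpb, Trib3, Aldh1l2, Asns, Sesn2 and Psat1, chosen by symbol. All 10 were present in each of the 4 deposited tables, which together named 16896 genes. The line used was ES-E14TG2a, which comes from a male mouse embryo and stays pluripotent in culture. The cells were given the uridine analogue 4-thiouridine (500 nM, 5 min), and the labelled, newly made RNA was sequenced (TT-seq). A value here is therefore closer to the rate of RNA production than to the amount of standing message. The mutant lines carried alanine in place of lysine at residue 122 (K122A) of histone H3.3, an H3 variant that is deposited outside DNA replication and is encoded by the genes H3f3a and H3f3b. Dual-targeted lines had 3 of the 4 H3.3 alleles mutant and comprised 2 clones that were H3f3a A/A H3f3b WT/A (named here the clones) and 1 further line that was H3f3a WT/A H3f3b A/A (named here the reciprocal line). Single-targeted lines had 2 mutant alleles and comprised 1 line with both H3f3a alleles mutant (H3f3a A/A H3f3b WT/WT) and 1 with both H3f3b alleles mutant (H3f3a WT/WT H3f3b A/A). Wildtype cells, with no mutant H3.3 allele, gave 3 libraries, described as biological replicates. Each mutant line was 1 library, so error within a mutant group is the spread between lines, and a trait of a single line cannot be told apart from an effect of its genotype. No drug treatment is given. Of the media that the labels name, one has LIF alone and one adds 2 inhibitors, and the one used for these libraries is not said.

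The integrated stress response begins with kinases that sense amino acid shortage, unfolded protein in the endoplasmic reticulum, double-stranded RNA or mitochondrial and haem stress, and that phosphorylate the translation factor eIF2. Phosphorylated eIF2 blocks its exchange factor eIF2B, so that most translation slows while the Atf4 messenger is translated more. ATF4 is thus controlled to a large degree at translation, which TT-seq does not measure. ATF4 protein then binds, often with C/EBP proteins, to C/EBP-ATF response elements and drives genes for amino acid supply, other transcription factors and feedback inhibitors.

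Promoter sequence was read from RefSeq (GRCm38.p6), as the 250 bases before and 50 bases from each start. It was searched for the element that ATF4 binds. An element outside this window would be missed, so a gene without a match may still hold one. The window was present for 9 of the 10 genes, all but Aldh1l2, and Psat1 had more than 1. The C/EBP-ATF response element, searched as TGATGNAA on both strands, occurred in Atf3, Chac1, Trib3 and Asns, that is in 4 of 9 genes, against 4.51% of 27025 genes with a promoter in the table. The stretches are given on the gene's own strand with the element in capitals. In Atf3 (chr1:191183396-191183483, minus strand) and Chac1 (chr2:119351009-119351096, plus strand) the 8 letters are identical, whereas Trib3 (chr2:152344028-152344057, minus strand) and Asns (chr6:7693210-7693272, minus strand) differ from them and from each other.

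Atf3: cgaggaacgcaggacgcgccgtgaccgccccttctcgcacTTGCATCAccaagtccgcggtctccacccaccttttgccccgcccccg

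Chac1: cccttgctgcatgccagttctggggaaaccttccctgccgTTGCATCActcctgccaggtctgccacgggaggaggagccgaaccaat

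Trib3: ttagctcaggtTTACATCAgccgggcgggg

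Asns: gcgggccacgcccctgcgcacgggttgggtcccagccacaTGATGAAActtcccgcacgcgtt

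Counted from the RefSeq start, the element began at -193 in Chac1, at -110 in Atf3, at -23 in Asns and at 14, past the start, in Trib3. A further 3 motifs were searched on both strands. The cAMP response element core TGACGT, which does not overlap the element above in these genes, was present in Atf3 alone among the 9 and in 8.37% of genes with a promoter. The C/EBP half-palindrome TTGCGNAA was in 0 of 9 and in 0.918% of genes. The endoplasmic reticulum stress element, CCAAT and CCACG separated by 9 bases, was in 0 of 9 and in 0.137% of genes. A match describes letters in this window and is not evidence of binding.

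The values are those of the authors' 4 comparisons, with no values per library. Each table gives a mean normalized count over the libraries compared, a log2 fold change, read here as shrunken towards 0, with its standard error (SE), and a p adjusted over all genes of that table. A gene is said to have risen or fallen, or to be called, at an adjusted p under 0.05. Because the 4 means run over known numbers of libraries, the mean of each group was rebuilt by subtraction, on a common scale that sets the median gene of each group equal to wildtype. Without that scale the median gene lay under wildtype, at -0.17 in dual-targeted lines, -0.16 in single-targeted lines and -0.05 in the clones (log2). Ratios given without scaling include this offset. The rebuilt means are in normalized counts and carry no error. They separate the clones from the reciprocal line, but not the 2 single-targeted lines from each other. All 8 embryonic stem cell markers were measured, with mean normalized counts of 812 to 4211 in the dual-targeted and wildtype libraries, and the fibroblast or feeder markers Col1a1, Col1a2, Twist2 and Postn had no value here, while Thy1 averaged 25.2 and Vim, which is not restricted to fibroblasts, 276.

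Between dual-targeted lines and wildtype cells, Atf4 rose and Chac1 fell, and the other 8 genes were not called. This is 2 of 10 genes, a share close to the 20.9% of all genes tested in that comparison. In bulk libraries, fewer cells making an RNA and less of it per cell cannot be told apart. The median log2 fold change of the 10 genes was -0.09 and that of all genes was 0.01. Between single-targeted lines and wildtype cells Cebpb rose and no other member was called, 1 of 10 against 2.96% of all genes tested (1.49% called higher and 1.47% called lower). Between dual-targeted and single-targeted lines Chac1, Cebpb and Trib3 were lower in dual-targeted lines, 3 of 10 against 7.06% of all genes tested, and against 2.69% for genes called lower. The clones alone, compared with wildtype, gave the same 2 calls as the whole dual-targeted group, a share of 2 in 10 that is likewise close to the background of 19.3% of all genes tested (9.05% called higher and 10.3% called lower). The comparisons with wildtype share the 3 wildtype libraries, and those with single-targeted lines share the same 2 libraries. The clones are part of the dual-targeted group. The comparisons are thus not independent of each other.

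**Figure D1:**
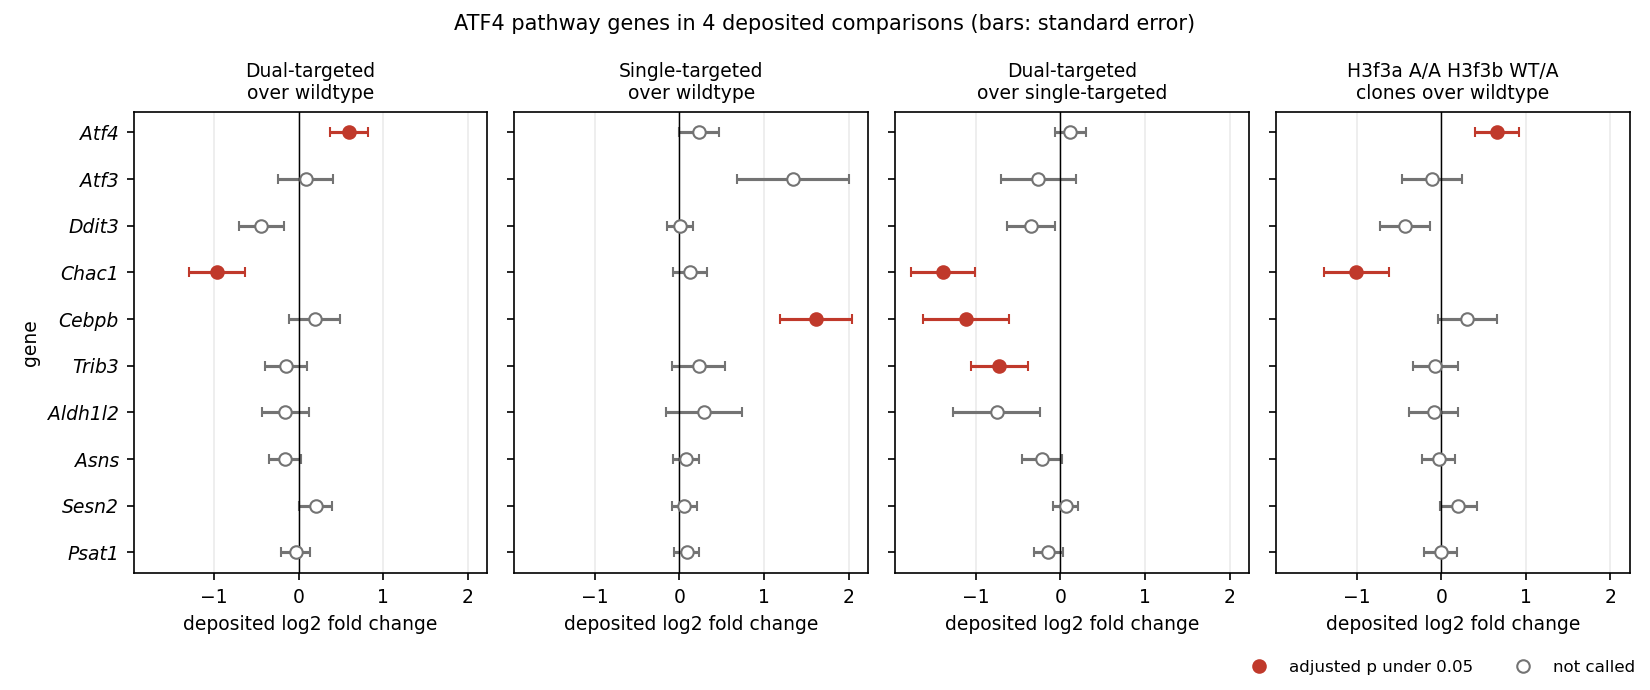
Deposited log2 fold change (x axis) of the 10 genes (y axis) in the 4 comparisons, 1 panel each, with bars of 1 standard error. Filled red points passed an adjusted p under 0.05. Chac1 lies left of 0 in each panel with dual-targeted lines or clones, at -0.96, -1.38 and -1.01, and Cebpb lies at 1.61 in single-targeted lines over wildtype.

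Atf4 encodes the bZIP (basic leucine zipper) factor at the centre of the response. It is a short gene on chromosome 15 (80255184 to 80257541, plus strand, GRCm38, 2358 bp) that no other annotated gene overlaps. Its rebuilt mean was 1576 normalized counts in the clones, 1320 in the reciprocal line, 1303 in single-targeted lines and 931 in wildtype cells. Every mutant group thus lay above wildtype, although for the reciprocal line the log2 ratio of 0.50 was 0.06 without scaling between tables. Without scaling the median gene of dual-targeted lines itself lay at -0.17 over wildtype, and that of the reciprocal line alone was not worked out. In the authors' deposited table of dual-targeted lines over wildtype the log2 fold change of Atf4 was 0.60 ± 0.23 (SE, adjusted p = 0.0156). In the authors' deposited table of the clones it was 0.66 ± 0.26 (adjusted p = 0.0196). In single-targeted lines over wildtype the authors' deposited table gave 0.23 ± 0.24 (adjusted p = 0.409). Dual-targeted and single-targeted lines differed by 0.12 ± 0.18 in the authors' deposited table (adjusted p = 0.625), so a difference of Atf4 between the mutant groups was not shown. Short genes had higher fold changes as a class in dual-targeted lines. Protein-coding genes under 5000 bp with a mean count of 50 or more had a median log2 fold change of 0.26 over wildtype (861 genes), against 0.00 for longer ones (9178 genes). The part of gene length in the value for Atf4 was not tested.

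Atf3, Ddit3 and Cebpb encode bZIP factors that act with or downstream of ATF4. Atf3, an early stress-induced repressor and activator, had the lowest mean count of the 10 genes in the table of dual-targeted lines and wildtype cells, at 19.3. Its rebuilt mean was 13.7 normalized counts in the clones, 35.9 in the reciprocal line, 61.3 in single-targeted lines and 17.5 in wildtype cells. The clones lay below wildtype, and the reciprocal line and the single-targeted mean above it, although without scaling between tables the dual-targeted mean lay at -0.06 on the log2 scale. The authors' deposited table of single-targeted lines over wildtype gave 1.34 ± 0.66 (adjusted p = 0.0502), just outside the threshold. In dual-targeted lines over wildtype the authors' deposited table gave 0.08 ± 0.32 (adjusted p = 0.8). Dual-targeted over single-targeted lines stood, by the authors' deposited table, at -0.26 ± 0.44 (adjusted p = 0.155), although the unshrunken ratio of rebuilt means was -1.54 on the log2 scale.

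Cebpb, which encodes C/EBP beta, a dimer partner of ATF4 with roles in inflammation and differentiation, had rebuilt means of 51.6 normalized counts in the clones, 31.8 in the reciprocal line, 124 in single-targeted lines and 34.8 in wildtype cells. The single-targeted mean stood 3.56-fold above wildtype, while dual-targeted lines were on either side of it. The authors' deposited table of single-targeted lines over wildtype gave 1.61 ± 0.43 (adjusted p = 0.00114). Dual-targeted lines over wildtype gave 0.19 ± 0.30 in the authors' deposited table (adjusted p = 0.561), and -1.12 ± 0.51 over single-targeted ones by the authors' deposited table of that pair (adjusted p = 0.0287). Cebpb was thus called with 2 mutant alleles and not with 3, and the difference between the mutant groups itself passed the test. Which of the 2 single-targeted lines carried it cannot be read from the tables.

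Ddit3 encodes CHOP, a factor linked to cell death under prolonged endoplasmic reticulum stress. It had rebuilt means of 92.3 normalized counts in the clones, 98.6 in the reciprocal line, 143 in single-targeted lines and 141 in wildtype cells. Both dual-targeted values were lower than wildtype, but the comparison missed the threshold, at -0.44 ± 0.26 in the authors' deposited table (adjusted p = 0.121). The single-targeted mean over wildtype was 0.00 ± 0.15 by the authors' deposited table (adjusted p = 0.992). Its value is uncertain, because the annotation holds 2 overlapping genes of that name, and Mars lies across the locus on the opposite strand, while no source used here says whether counting was by strand. Cebpb likewise overlaps Tmem189 on the opposite strand.

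Chac1 encodes an enzyme that breaks down glutathione and is among the genes most tied to ATF4 and CHOP. It lies on chromosome 2 (119351229 to 119354381, plus strand, GRCm38) with no overlapping gene. Its rebuilt mean was 99.4 normalized counts in the clones, 120 in the reciprocal line, 317 in single-targeted lines and 233 in wildtype cells. Both dual-targeted values were near each other and lower than the other groups. In the authors' deposited table of dual-targeted lines over wildtype the log2 fold change was -0.96 ± 0.33 (adjusted p = 0.00443). The authors' deposited table of dual-targeted over single-targeted lines gave -1.38 ± 0.38 (adjusted p = 0.00222), the greatest fall among the 10 genes in that comparison. The clones over wildtype gave -1.01 ± 0.39 in the authors' deposited table (adjusted p = 0.00848), while single-targeted lines over wildtype gave 0.13 ± 0.20 in the authors' deposited table (adjusted p = 0.627). Chac1 and Atf4 thus moved in opposite directions in dual-targeted lines. Chac1 is itself a short gene, at 3153 bp. Short genes as a class had a median of 0.26 in dual-targeted lines over wildtype, the other direction from the fall of Chac1. The part of gene length in its value was not tested.

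Trib3 encodes a pseudokinase that binds ATF4 and CHOP and dampens the response. Its rebuilt means were 183 normalized counts in the clones, 141 in the reciprocal line, 327 in single-targeted lines and 201 in wildtype cells. Dual-targeted lines were lower than single-targeted lines by the authors' deposited table, at -0.72 ± 0.34 (adjusted p = 0.0408). Neither mutant group was called against wildtype, the authors' deposited tables giving -0.15 ± 0.25 for dual-targeted lines (adjusted p = 0.627) and 0.23 ± 0.31 for single-targeted ones (adjusted p = 0.37). The wildtype mean lay between those of the mutant groups. Sesn2, a sestrin that restrains mTORC1 when leucine is short, had 819 normalized counts in the clones, 808 in the reciprocal line, 769 in single-targeted lines and 688 in wildtype cells. The log2 ratio of the reciprocal line to wildtype was 0.23, and -0.19 without scaling between tables. The median gene of dual-targeted lines then lay at -0.17 over wildtype. Sesn2 was not called in any of the 4 tables, and its deposited log2 fold changes spanned 0.06 to 0.20 with standard errors of 0.15 to 0.22.

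**Figure D2:**
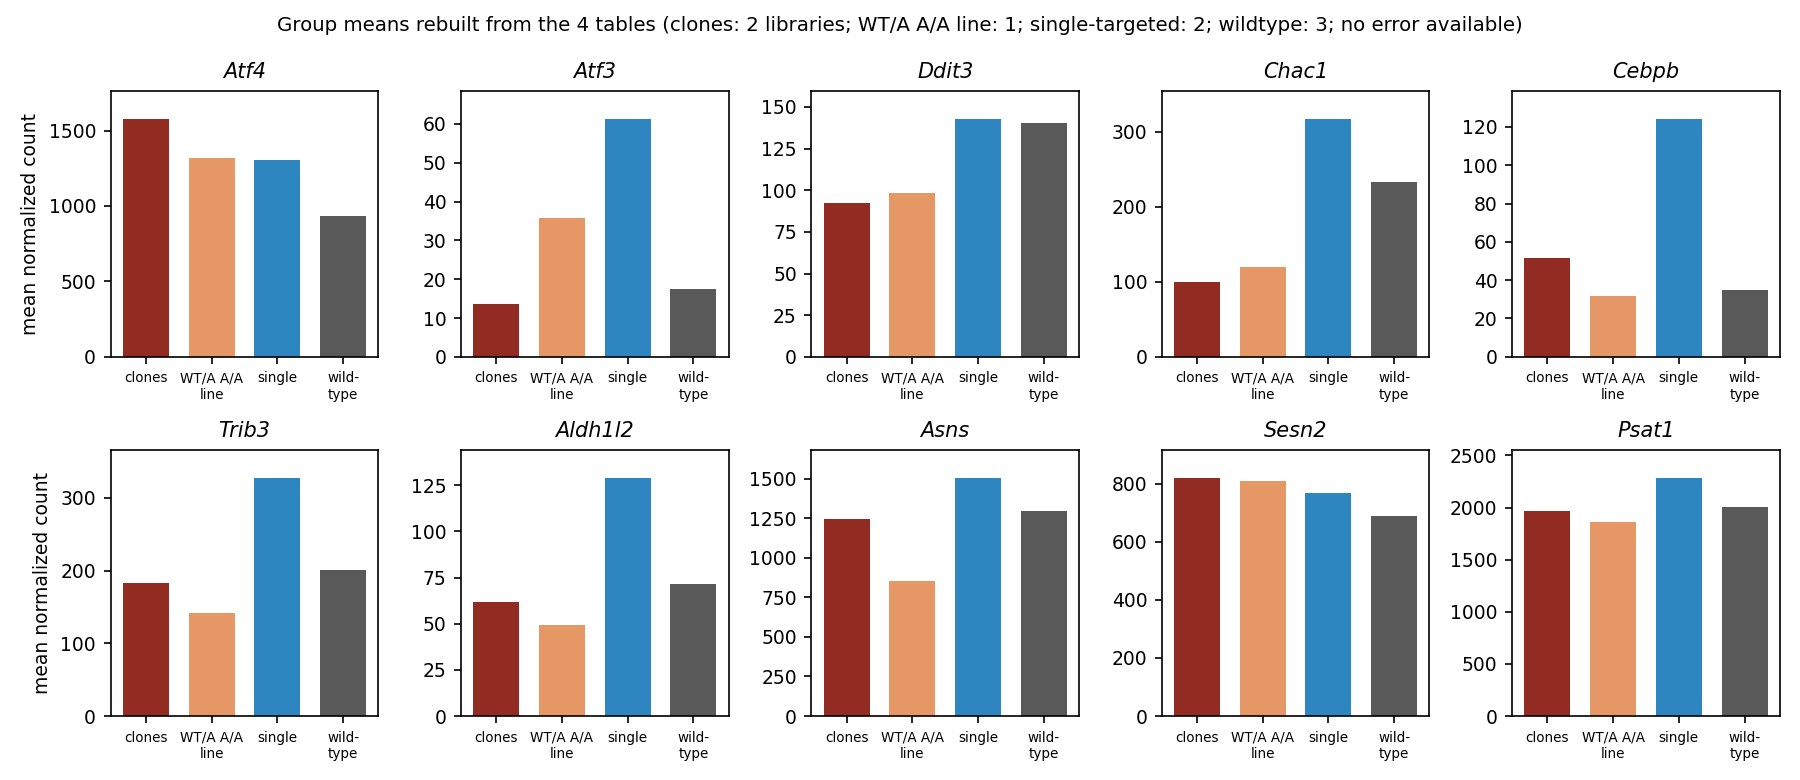
Mean normalized count (y axis, from 0, its own scale in each panel) rebuilt for the clones, the reciprocal line (marked WT/A A/A), single-targeted lines and wildtype cells, 1 panel per gene. The bars have no error. Single-targeted lines hold the tallest bar for Chac1 (317), Cebpb (124) and Trib3 (327), and wildtype the shortest for Atf4 (931).

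Asns, Psat1 and Aldh1l2 are metabolic targets of ATF4, acting in asparagine synthesis, in serine synthesis and in the oxidation of mitochondrial formyl-folate. Asns (asparagine synthetase) had rebuilt means of 1247 normalized counts in the clones, 850 in the reciprocal line, 1501 in single-targeted lines and 1297 in wildtype cells. Psat1 (phosphoserine aminotransferase) had 1964 in the clones, 1865 in the reciprocal line, 2281 in single-targeted lines and 2001 in wildtype cells. Neither was called in any comparison, and their deposited standard errors of 0.15 to 0.23 were small beside those of the low-count genes. For Psat1, dual-targeted lines over wildtype gave -0.03 ± 0.17 in the authors' deposited table (adjusted p = 0.913). Aldh1l2 had 61.5 normalized counts in the clones, 49.2 in the reciprocal line, 129 in single-targeted lines and 71.4 in wildtype cells. Its difference between dual-targeted and single-targeted lines was -0.75 ± 0.51 in the authors' deposited table and missed the threshold (adjusted p = 0.0766). Aldh1l2 overlaps D10Wsu102e on the opposite strand and is uncertain for that reason. Overlaps are also annotated for Sesn2 (Gm12981, same strand), Psat1 (Gm3329, a processed pseudogene, opposite strand) and Atf3 (Gm24748, opposite strand).

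Among themselves the 10 genes fell into few patterns. The deposited fold change of single-targeted lines over wildtype was positive for 10 of 10 genes, with a median of 0.18, while 51.3% of all genes in that table were positive. Only Cebpb of these passed the test. The rebuilt means gave the same 10 of 10, and 8 of 10 without scaling between tables, Ddit3 and Sesn2 then lying below wildtype. Rebuilt means of dual-targeted lines were under those of single-targeted lines for 8 of 10 genes, Atf4 and Sesn2 being the exceptions, while 50.5% of all genes used to set the scales were so. This count and the one of single-targeted lines over wildtype share the 2 single-targeted libraries and are not independent. The median deposited fold change of dual-targeted over single-targeted lines was -0.30 for the 10 genes and 0.00 for all genes. The reciprocal line was under the clones for 7 of 10 genes, against 53.7% of those genes, with the widest gaps for Cebpb below and Atf3 above. This count rests on 1 library and on the scales. Without scaling between tables Ddit3 and Chac1 also lay under the clones. Their log2 ratios to wildtype were then -1.05 and -1.62 in the reciprocal line and -0.64 and -1.29 in the clones. The share of all genes under the clones was not worked out without scaling. The median gene then lay at -0.17 in dual-targeted lines and at -0.05 in the clones over wildtype. The chromosomes that hold the 10 genes had median log2 fold changes between -0.01 and 0.08 in dual-targeted lines over wildtype, and the part of chromosome dosage in the members' values was not tested.

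Genes around the 10 were read from 7 lists with 127 entries, of which 125 were measured in dual-targeted lines and wildtype. The 10 genes and the lists were chosen with earlier results of these data known. Their shares beside those of all genes are thus description and not a test. Up to 4 genes per list are named by the smallest adjusted p in that comparison, and others named after their values were seen are marked as such. In dual-targeted lines over wildtype 18 of the 125 were higher and 13 lower, against 10.8% and 10.1% of all genes tested. In single-targeted lines over wildtype 3 of 124 were higher and 4 lower, against 1.49% and 1.47% of all genes tested.

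Upstream of Atf4, a list of 19 genes held eIF2, its kinases, its phosphatase subunits and eIF2B, together with Gcn1, Impact, Dnajc3, Oma1 and Dele1. Of these, 4 rose in dual-targeted lines over wildtype and 0 fell, against 10.8% of all genes tested that were called higher. The median was 0.14. Eif2s2, the beta subunit of eIF2, had rebuilt means of 7332 normalized counts in dual-targeted lines, 3932 in single-targeted lines and 2795 in wildtype cells. It rose by 1.34 ± 0.23 over wildtype in the authors' deposited table (adjusted p = 6.05e-08). Eif2s1, the alpha subunit that is phosphorylated, rose by 0.46 ± 0.18 in the authors' deposited table (adjusted p = 0.0266), a call lost in the clones alone at 0.46 ± 0.21 in the authors' deposited table (adjusted p = 0.0641). The eIF2B subunit genes Eif2b4 (0.63 ± 0.24, adjusted p = 0.0161) and Eif2b1 (0.50 ± 0.21, adjusted p = 0.0329) rose as well in the authors' deposited table. None of the kinase genes Eif2ak1, Eif2ak2, Eif2ak3 and Eif2ak4 was called in any of the 4 comparisons (named after their values were seen). In single-targeted lines over wildtype 0 of 19 passed the authors' DESeq2 test, against 445 genes in all (2.96% of those tested). At an unadjusted p under 0.05 there were 2019 genes in all.

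Of 16 measured bZIP partners and relatives of ATF4, 0 rose and 3 fell in dual-targeted lines over wildtype, a share close to the 20.9% of all genes tested that were called in either direction, with a median of -0.07. Jdp2, a repressor of AP-1 and ATF sites, fell by 1.02 ± 0.44 on the log2 scale in the authors' deposited table (adjusted p = 0.0132), with rebuilt means of 25.5 normalized counts in dual-targeted lines and 62.4 in wildtype cells. Nfe2l2, which encodes the oxidative stress factor NRF2, stood at -0.61 ± 0.20 (adjusted p = 0.00536) and Creb1 at -0.51 ± 0.23 (adjusted p = 0.04) in the authors' deposited table. Atf5, a factor also controlled by eIF2 phosphorylation, was not called in dual-targeted lines by the authors' deposited table, at 0.46 ± 0.32 (adjusted p = 0.148). In the clones alone it rose over wildtype, at 0.72 ± 0.34 in the authors' deposited table (adjusted p = 0.0403), with rebuilt means of 134 normalized counts in the clones, 70.8 in the reciprocal line and 72.1 in wildtype cells. Of 15 measured in single-targeted lines over wildtype, 0 were called, against only 2.96% of all genes tested.

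Amino acid genes did not move as a block in dual-targeted lines over wildtype. Of 17 enzymes of amino acid synthesis and one-carbon metabolism, 1 rose and 2 fell in dual-targeted lines over wildtype, a share close to the 20.9% of all genes tested, with a median of 0.00. Glul, glutamine synthetase, rose by 0.83 ± 0.20 (adjusted p = 1.04e-04), while Gpt2, a mitochondrial alanine transaminase and known ATF4 target, was lower, at -1.20 ± 0.26 (adjusted p = 1.08e-05) in the authors' deposited table. Gpt2 had rebuilt means of 406 normalized counts in dual-targeted lines, 1038 in single-targeted lines and 1002 in wildtype cells. Cbs, of the transsulfuration route, was lower at -0.76 ± 0.23 (adjusted p = 0.00217) and Pycr1, of proline synthesis, stood at -0.48 ± 0.27 (adjusted p = 0.096) in the authors' deposited table. Cth, which makes cysteine, was the one gene of this list that rose in single-targeted lines over wildtype, at 1.43 ± 0.28 in the authors' deposited table (adjusted p = 1.24e-05) (named after its values were seen). Against single-targeted lines, dual-targeted lines were lower for Cth at -0.85 ± 0.39 in the authors' deposited table (adjusted p = 0.0347), as they were for Cebpb. In that comparison 4 of the 17 enzymes were lower (Psph, Gpt2, Cth and Cbs) and 1 higher, against 2.69% and 4.37% of all genes tested. The median of the 17 there was 0.05.

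Of 13 amino acid transporters, 0 rose and 1 fell in dual-targeted lines over wildtype, against 10.8% and 10.1% of all genes tested that were called higher and lower, with a median of -0.08. Slc1a5, a glutamine transporter, was lower in dual-targeted lines by the authors' deposited tables, at -0.63 ± 0.20 over wildtype (adjusted p = 0.00475) and at -0.84 ± 0.20 over single-targeted lines (adjusted p = 4.77e-04). Over single-targeted lines 3 of the 13 were lower (Slc6a9, Slc1a4 and Slc1a5) and 0 higher, against 2.69% and 4.37% of all genes tested. The median of the 13 there was -0.18. Slc7a5, Slc38a2 and Slc43a1 were not called, with values of -0.32 ± 0.19, -0.29 ± 0.16 and 0.43 ± 0.24 over wildtype in the authors' deposited table. Slc1a4 and Slc1a1 rose in single-targeted lines over wildtype, at 0.66 ± 0.25 (adjusted p = 0.0248) and 1.07 ± 0.49 (adjusted p = 0.0417) in the authors' deposited table (named after their values were seen). Of 19 genes for cytosolic aminoacyl-tRNA synthetases and the tRNA exporter Xpot, 1 rose and 0 fell in dual-targeted lines over wildtype, against the same 10.8% and 10.1%, and the median was 0.05. Hars, histidyl-tRNA synthetase, was the gene that rose, at 0.78 ± 0.21 in the authors' deposited table (adjusted p = 6.81e-04). Aars (-0.43 ± 0.21), Rars (0.35 ± 0.17) and Sars (-0.36 ± 0.19) were not called in the authors' deposited table.

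Other outputs of the stress response were called more often lower than higher in dual-targeted lines. Of 21 measured, 7 fell and 3 rose over wildtype, against 10.1% of all genes tested that were called lower, and the median was -0.27. In the clones alone over wildtype 9 fell and 1 rose, against 10.3% and 9.05% of all genes tested. Map1lc3b, an autophagosome protein gene, was lower, at -1.08 ± 0.20 (adjusted p = 8.06e-07) and Herpud1, of endoplasmic reticulum degradation, at -0.87 ± 0.28 (adjusted p = 0.00345) in the authors' deposited table. Trib1, a relative of Trib3, rose by 1.29 ± 0.24 (adjusted p = 5.31e-07) and the cell death gene Bcl2l11 by 0.69 ± 0.23 (adjusted p = 0.00454) in the authors' deposited table. Without the reciprocal line Bcl2l11 was not called, the clones standing at 0.46 ± 0.21 over wildtype in the authors' deposited table (adjusted p = 0.0644), and its rebuilt means were 837 normalized counts in the clones, 1299 in the reciprocal line and 581 in wildtype cells. Map1lc3b had rebuilt means of 442 normalized counts in dual-targeted lines, 510 in single-targeted lines and 981 in wildtype cells. In single-targeted lines over wildtype 2 of 21 genes of this list were lower, against 1.47% of all genes tested. They were Map1lc3b at -0.86 ± 0.22 (adjusted p = 5.78e-04) and the autophagy receptor Sqstm1 at -0.71 ± 0.24 (adjusted p = 0.0114, named after its values were seen), by the authors' deposited table.

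Genes of the endoplasmic reticulum branch, which answers unfolded protein through ATF6 and XBP1 rather than ATF4, had 9 of 20 genes called higher and 0 called lower in dual-targeted lines over wildtype, against 10.8% of all genes tested that were called higher, with a median of 0.31. In the clones alone over wildtype 7 were called higher, against 9.05% of all genes tested. Pdia6 and Calr lost their calls there (named after their values were seen). In dual-targeted over single-targeted lines 10 were higher and 0 lower, against 4.37% of all genes tested that were called higher. In single-targeted lines over wildtype 0 of 20 were called, against only 2.96% of all genes tested. Herpud1, of endoplasmic reticulum degradation, was counted among the other outputs and not in these 20, and it fell in dual-targeted lines over wildtype. Hspa5, the chaperone BiP, had rebuilt means of 3106 normalized counts in dual-targeted lines, 1420 in single-targeted lines and 1259 in wildtype cells, with 1.24 ± 0.22 over wildtype in the authors' deposited table (adjusted p = 1.97e-07). Hsp90b1 (0.97 ± 0.22, adjusted p = 4.82e-05), Pdia3 (0.80 ± 0.21, adjusted p = 3.51e-04) and Dnajb11 (0.78 ± 0.21, adjusted p = 5.54e-04), which fold secreted proteins, rose in the authors' deposited table. Xbp1, Atf6 and Ern1, the sensors and factor of the branch, were not called in any of the 4 comparisons (named after their values were seen). Hyou1 and Canx (0.34 and 0.27 over wildtype in the authors' deposited table) and Dnajb9 and Sdf2l1 (0.10 and -0.03 in the authors' deposited table) were likewise not called in dual-targeted lines over wildtype (named after their values were seen).

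**Figure D3:**
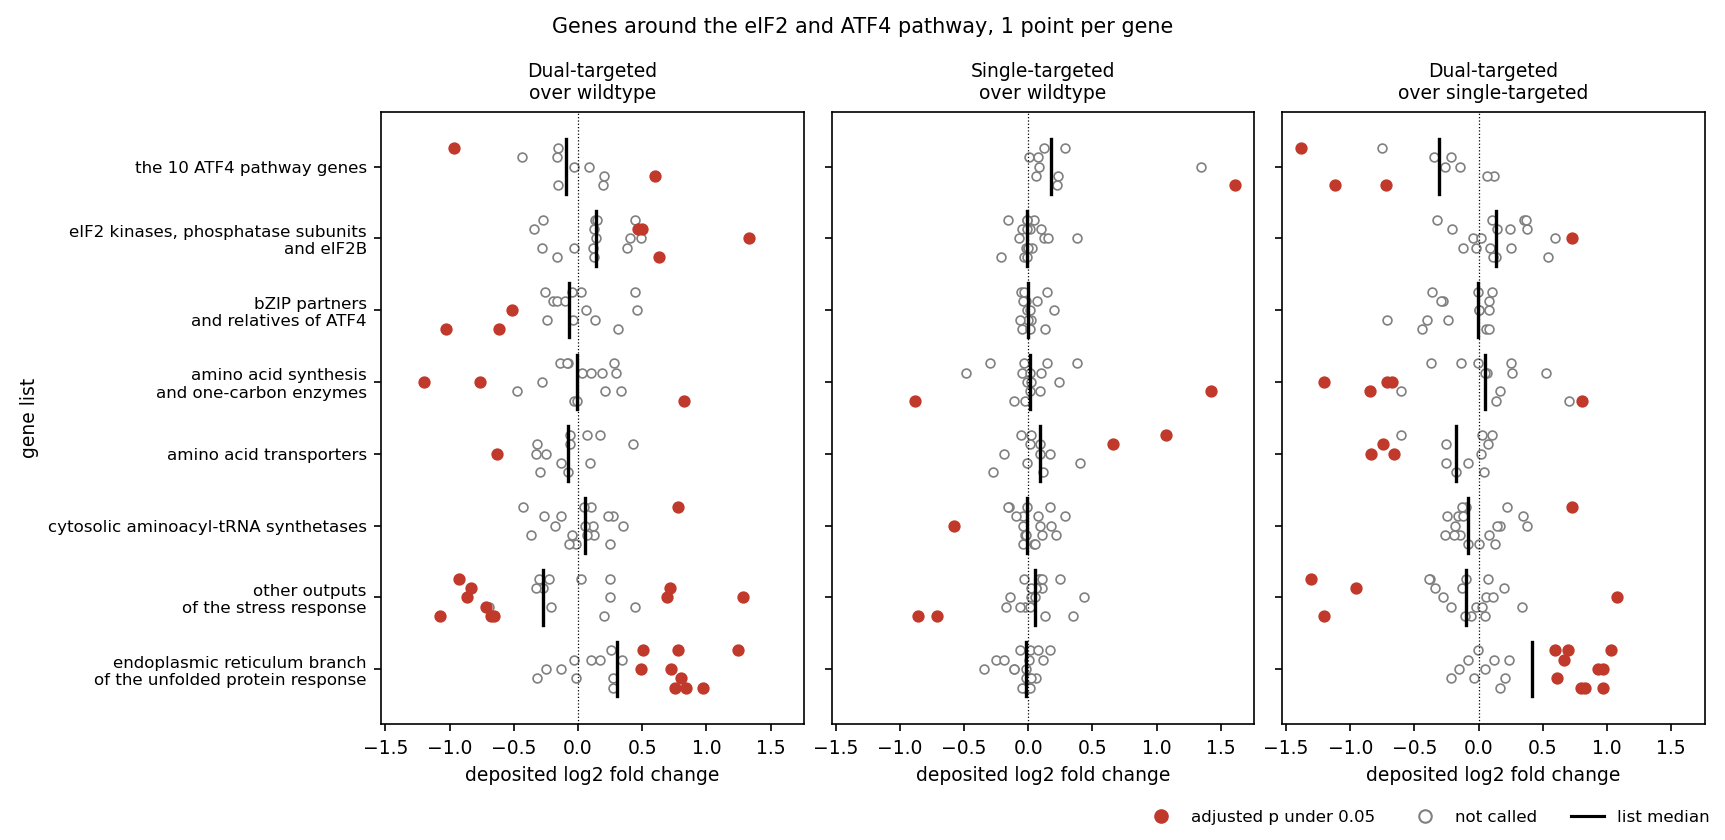
Deposited log2 fold change (x axis) of each gene in the 10-gene set and in 7 lists around it (y axis), for 3 comparisons. Each point is 1 gene, red where the adjusted p was under 0.05, and black bars are list medians. In dual-targeted lines over wildtype the endoplasmic reticulum branch is shifted to the right (median 0.31) and the other outputs of the stress response to the left (median -0.27). Both medians lie near 0 in single-targeted lines over wildtype. The values are read as shrunken. For the 10-gene set in single-targeted lines over wildtype the median is 0.18, and 0.46 from unshrunken ratios of rebuilt means.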

How the data were processed

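TT-seq libraries of 8 samples were grouped by genotype label. The authors deposited 4 tables of comparisons. Per the submitters' processing notes, the builds were mm10 and GRCm38.p6 and the tools DESeq2, featureCounts, STAR, deepTools and SAMtools. Their versions, the counting settings and the use of strand are not given in the sources used here. Per the file headers, the deposited signal is the mean normalized count of all libraries in a comparison. The deposited log2 fold change and its error are read as shrunken, since its size fell short of what its p and error imply in 100% of called genes. The deposited p-value and adjusted p are the authors' own, and empty cells were kept empty. The tables held 16498 (dual-targeted, wildtype), 16255 (single-targeted, wildtype), 16149 (dual-targeted, single-targeted) and 16254 (clones, wildtype) genes, and an adjusted p was present for 16493, 15030, 13141 and 15640. No values per library were used. Depth per library is thus not known here, and precision comes from the deposited errors alone.

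Positive fold changes mean higher in the mutant group, or in dual-targeted over single-targeted lines. This was read from rebuilt means, which had the sign of the fold change in 100% of the called genes whose mean count reached 50 in all 4 tables. Scales of 0.983, 1.06 and 0.957 joined the tables, set over 11099 genes. The rebuilding was run on simulated data drawn with the median gene of each group near wildtype, as the method assumes. That assumption itself was thus not tested. The members and lists were chosen with earlier results of these data known. Named genes were all 10 members and up to 4 genes per list by adjusted p in dual-targeted lines over wildtype. Alternatives were an adjusted p under 0.01, adjustment over every gene with a p, a mean count of 50, centring, leaving out the reciprocal dual-targeted line (the one mutant in both H3f3b alleles), no scaling between tables and, added after seeing the data, unshrunken ratios. Positions came from GENCODE mouse release 21 (GRCm38). Scripts ran in Python 3.11.15 with pandas 2.3.3, numpy 2.4.6, matplotlib 3.10.9 and scipy 1.17.1. One result of the gene lists is not reported here.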

Additional observations from a re-analysis of the deposited data

Results flagged for a closer look

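Of the 10 genes, 3 had a different change from wildtype in dual-targeted and in single-targeted lines, tested directly by the authors' comparison of these mutant groups. In the authors' deposited table of dual-targeted over single-targeted lines, Chac1 stood at -1.38 ± 0.38 (SE, adjusted p = 0.00222). Cebpb stood at -1.12 ± 0.51 (adjusted p = 0.0287) in the authors' deposited table. Trib3 stood at -0.72 ± 0.34 (adjusted p = 0.0408) in the authors' deposited table. With 3 dual-targeted and 2 single-targeted lines of 1 library each, the spread is one between lines, and values of the separate single-targeted lines were not analysed here.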

How the results depend on the processing

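At an adjusted p under 0.01 the called members were 1 in dual-targeted lines over wildtype, 1 in the clones over wildtype and 1 in dual-targeted over single-targeted lines, Chac1 each time, so Atf4, and Cebpb and Trib3 against single-targeted lines, lost their calls. Cebpb in single-targeted lines over wildtype kept its call. The called members were the same genes with adjustment over every gene with a p and with a mean count of 50 or more. Centring, which leaves the deposited p as it is, turned no member's direction. Without the reciprocal dual-targeted line Atf4 and Chac1 kept their calls, and the uncalled Atf3 turned to -0.11. With unshrunken ratios of rebuilt means, tried after the data were seen, the median of the 10 genes was 0.46 in single-targeted lines over wildtype and -0.77 in dual-targeted over single-targeted lines, and no member turned its direction. With no scaling between the tables, a count of 3 members in place of 4 had higher rebuilt means in dual-targeted lines than in wildtype. The rebuilt value of the reciprocal dual-targeted line rests most on the scales. Its log2 ratio to wildtype for Atf4 was 0.50 with them and 0.06 without. Without them the median gene of dual-targeted lines itself lay at -0.17 over wildtype. Leaving out any other library was not run, since it needs values per library. No paired analysis was possible because the tables hold no values per library. Atf3 and Cebpb have the lowest counts, which limits how well their sizes are known.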
